A study of Homo sapiens with 6 samples.

Results

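A375 is a human melanoma line with mutant BRAF, and dabrafenib inhibits the mutant BRAF kinase. Drug-naive A375 cells had been taken through increasing doses, and the transcripts of single cells were counted as unique molecular identifiers (UMIs). The group described here is cluster 7 of the authors' deposited cell table, which held 780 of the 5059 listed A375 cells (15.4%, 95% exact binomial interval 14.4 to 16.4) and 780 of the 8505 cells of the count table. Members were found by their cluster number and matched to the counts by cell name. Dabrafenib was at 30, 60, 125, 250 or 500 nM, or at 1, 2 or 4 µM, in the 8 adapted populations, and the ninth was left untreated. Each population was 1 culture, all carried cell tags and were pooled, and no sorting or clone picking is stated. The cell table carries the label g1, but how the listed cells were chosen from the count table is not stated. Of 2011 untreated cells 442 were listed. Cluster 7 was set against the 914 cells of cluster 6, the other cluster of high-dose cells, the 3365 cells of clusters 0 to 5, and the 442 listed untreated cells.

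Growth of BRAF-mutant melanoma depends on the MAPK pathway, in which BRAF activates MEK and ERK, and ERK induces feedback inhibitors such as the Sprouty and dual-specificity phosphatase genes. Melanocytes and most melanomas keep neural crest regulators such as SOX10. Melanoma cells adapted to BRAF inhibitors can lose SOX10 and take on mesenchymal features. Smooth muscle contractile genes, which include ACTA2 and TAGLN, are activated by serum response factor with coactivators such as myocardin and respond to actin assembly.

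The clusters were drawn from the same expression values, so every difference between clusters below is a description and no test was made. With 1 culture per population there is also no test between doses. Levels are counts per 1000000 UMIs (CPM) of summed cells, and a ratio is of CPM + 1 on the log2 scale. Fold values are ratios of CPM with a 95% interval that covers counting error alone. Measured genes are those that reached 10 CPM and 20 UMIs in the group with more, and a gene was counted as higher or lower at 2-fold.

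Summed depth was 7368626 UMIs in cluster 7, 9177057 in cluster 6 and 29260517 in clusters 0 to 5, which puts the limit of detection, at 3 UMIs per group, at 0.407, 0.327 and 0.103 CPM. Median UMIs per cell were 8849 in cluster 7, 9835 in cluster 6 and 8128 in clusters 0 to 5, and the median mitochondrial share was 6.61%, 6.89% and 6.46%. No cell barcode was shared between populations.

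Cluster 7 was made up mainly of high-dose cells, as it is labelled. Of its cells 747 (95.8%) came from 500 nM to 4 µM and 33 (4.23%) from the lower populations. Its share of the listed cells ran from 0.226% among untreated cells to 3.14% in the 30 nM population, with 1.5% in the 250 nM population. It was 23.5% at 500 nM (interval 19.9 to 27.5), 32.9% at 1 µM (29.2 to 36.8), 41.5% at 2 µM (37.7 to 45.4) and 36.5% at 4 µM (32.1 to 41.1). These intervals cover counting error over the cells of 1 culture each and do not compare the doses. Cluster 6 took 35.9%, 47.6%, 39.6% and 36.3% of listed cells at these 4 doses. The ratio of cluster 7 to cluster 6 cells was thus lower at 500 nM and 1 µM than at 2 and 4 µM. Over all cells of the count table, listed or not, cluster 7 was 17.1%, 23.3%, 31.9% and 23.5% at 500 nM, 1, 2 and 4 µM.

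**Figure D1:**
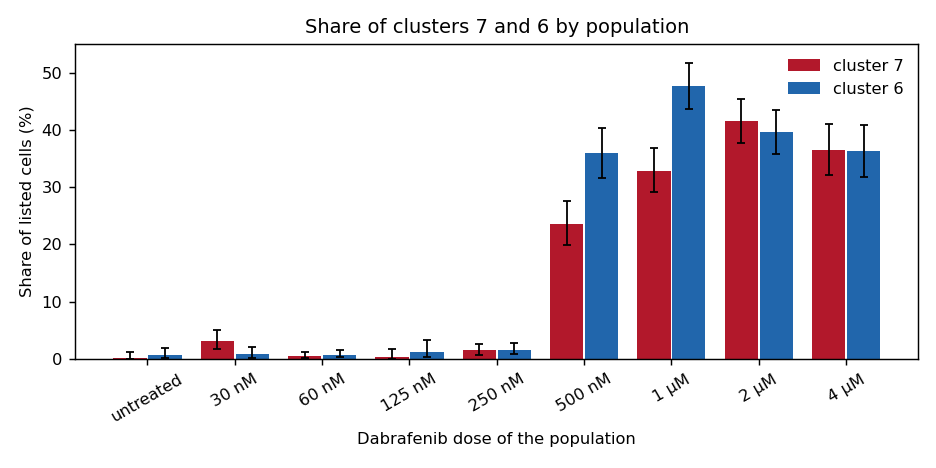
Share of listed cells (%, y axis) in cluster 7 (red) and cluster 6 (blue) for each population, from untreated to 4 µM dabrafenib (x axis). Bars are shares and error bars 95% exact binomial intervals. At 500 nM and above cluster 7 held 23.5% to 41.5% of listed cells, and its share up to 250 nM was at most 3.14%.

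By expression the nearest cluster was cluster 6. The root mean square log2 ratio of cluster 7 over another cluster, taken over measured genes, was 0.55 for cluster 6, 0.73 for cluster 4, 0.77 for cluster 5, 0.92 for cluster 3 and 1.11 to 1.24 for clusters 0, 1 and 2. Cluster 5, which also lay mainly at 1 to 4 µM, had 146 cells.

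Neural crest genes were low in cluster 7 against clusters 0 to 5. Of 18 listed genes 15 were measured; 11 were lower in cluster 7 and 1 higher, with a median log2 ratio of -3.69 against -0.31 over all 9640 measured genes. Over those genes 1666 (17.3%) were lower and 293 (3.04%) higher. With trimmed-mean (TMM) scaling the all-gene median was 0.00 and 1007 were lower and 575 higher, so 36.3% of the calls were on the higher side in place of 15.0%. SOX10, the neural crest and melanocyte transcription factor, stood at 5.56 CPM in cluster 7 against 203 CPM in clusters 0 to 5, 36.5-fold lower (26.9 to 50.9). By cluster it was at 7.19 CPM in cluster 6, 11.9 in cluster 5, 16.7 in cluster 4, and 176 to 287 in clusters 0 to 3. SOX10 was therefore low in clusters 4 to 7 alike. After cells were thinned to 4000 UMIs each, 1.70% of 763 cluster 7 cells had a SOX10 UMI (0.910 to 2.90), as did 2.28% of 879 cluster 6 cells and 52.8% of 3070 cells of clusters 0 to 5. Without thinning these shares were 3.97%, 6.56% and 72.1%.

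The neural crest factor TFAP2B was at 5.43 CPM in cluster 7 and 403 CPM in clusters 0 to 5, 74.2-fold lower (54.4 to 104). The glial and melanocytic calcium-binding protein S100B was at 7.74 against 279 CPM, 36.1-fold lower, and the neuregulin receptor ERBB3 at 5.84 against 186 CPM, 31.9-fold lower. By dose S100B was at 7.99, 7.30, 3.97 and 4.39 CPM in cluster 7 at 500 nM, 1, 2 and 4 µM, against 329, 148, 140 and 106 CPM in clusters 0 to 5. At these matched doses 12 of 14, 9 of 12, 10 of 13 and 7 of 11 measured genes of the list were lower, while 22.8%, 14.4%, 12% and 13.7% of all genes were. SOX9, a related factor of neural crest and cartilage, was the 1 listed gene that was higher, at 36.8 CPM in cluster 7 and 7.14 CPM in clusters 0 to 5 (5.15-fold, 4.28 to 6.20); it was at 48.7 CPM in cluster 6. The 33 members from lower doses had 32.7 CPM of SOX10 and 53.6 CPM of S100B, more than the members at any of the 4 high doses. These levels rest on few UMIs, as the 33 cells summed to 336134 UMIs, with a limit of detection of 8.93 CPM. The 5 of them from 60 nM had a median of 18185 UMIs, against 8101.5 in clusters 0 to 5 at that dose. The part of doublets was not tested.

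MHC class II genes, which present antigen and are carried by many melanomas, were all lower. The 10 of 10 were lower in the pooled comparison and also at each of the 4 matched doses, with a pooled median of -3.48. Of all genes 17.3% were lower in the pooled comparison, and 22.8%, 14.4%, 12% and 13.7% at 500 nM, 1, 2 and 4 µM. HLA-DRA was at 54.8 CPM in cluster 7 and 1047 CPM in clusters 0 to 5 (19.1-fold lower, 17.3 to 21.1), with 70.5 CPM in cluster 6. The HLA-DRB genes are near-identical copies and their split between copies is uncertain. MHC class I presentation genes had a median of 0.07, with 0 of 13 higher and 1 lower.

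Of the melanocyte lineage list, 4 of 14 genes were measured and 3 were lower, with a median of -2.47, while 17.3% of all genes were lower. At each of the 4 matched doses 1 of 3 measured genes, DCT, was lower, and the medians ran from -0.94 to -0.70. The pigment enzyme DCT was at 2.85 CPM in cluster 7 against 109 CPM in clusters 0 to 5, and by cluster it was highest in cluster 3, at 408 CPM. MITF, the melanocyte master regulator, was at 67.4 CPM in cluster 7, 114 CPM in cluster 6 and 149 CPM in clusters 0 to 5. MITF spans 229 kb, and beside genes of like span its log2 ratio to clusters 0 to 5 was -0.19, against -1.13 as measured.

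MAPK output genes were lower in cluster 7. Of 19 listed genes 17 were measured, 12 were lower and none higher, at a median of -1.5. Over all genes 17.3% were lower and the median was -0.31. At matched doses of 500 nM, 1, 2 and 4 µM, 10, 8, 7 and 8 of 16 were lower, while 22.8%, 14.4%, 12% and 13.7% of all genes were. The medians of the list at these doses were -1.39, -1.09, -0.81 and -1.04, smaller in size than in the pooled comparison. SPRY4, a Sprouty inhibitor of receptor signalling, was at 2.44 CPM in cluster 7 and 72.1 CPM in clusters 0 to 5 (29.5-fold lower, 18.6 to 49.9); untreated cells had 182 CPM. SPRY2 of the same family was at 13.2 against 135 CPM. DUSP6, the ERK phosphatase, was at 33.7 against 182 CPM (5.42-fold lower, 4.77 to 6.18). At 500 nM, 1, 2 and 4 µM DUSP6 was at 38, 37.5, 29.8 and 33.2 CPM in cluster 7 against 167, 119, 96.4 and 80.2 CPM in clusters 0 to 5. Cluster 7 was thus the lower side at each dose, and its own levels ran from 29.8 to 38 CPM. Against cluster 6 the median of the list was -0.27, close to the -0.25 of all genes. There 1 of 15 measured genes was lower, while 8.13% of all genes were.

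Integrins, the receptors for matrix, had 7 of 11 measured genes lower, none higher and a median of -1.72, while 17.3% of all genes were lower. At matched doses of 500 nM, 1, 2 and 4 µM, 5, 5, 5 and 4 of 10 were lower, with medians of -1.15, -1.11, -0.93 and -0.63, while 22.8%, 14.4%, 12% and 13.7% of all genes were. ITGA6, a laminin receptor chain, was at 24.0 CPM in cluster 7 and 161 CPM in clusters 0 to 5. Against cluster 6, 1 of 10 measured integrins was lower, while 8.13% of all genes were. The integrin median there was -0.39, and that of all genes -0.25. Matrix genes went both ways: 3 of 20 were higher and 6 lower in the pooled comparison, and at 500 nM, 1, 2 and 4 µM none was higher and 9 of 20, 5 of 20, 4 of 20 and 4 of 21 were lower. The counts at 2 and 4 µM are near the 12% and 13.7% of all genes that were lower there. Fibronectin (FN1) was at 217 CPM in cluster 7 and 75.2 CPM in clusters 0 to 5, and periostin (POSTN) at 146 against 48.5 CPM. Tenascin C (TNC) was at 61.9 against 394 CPM, and the protease inhibitor SERPINE2 at 444 against 2530 CPM.

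Smooth muscle contractile genes were high in cluster 7. Of 16 listed genes 11 were measured and 11 were higher in cluster 7 than in clusters 0 to 5, with a median log2 ratio of 1.91. Over all genes 3.04% were higher. Against cluster 6, 3 of 11 measured genes of the list were higher, the 3 given next, and 1 was lower. The median there was 0.51, against -0.25 over all genes, of which 0.0963% were higher and 8.13% lower. TAGLN, an actin-bundling protein of smooth muscle, was at 3679 CPM in cluster 7, 1839 CPM in cluster 6 and 440 CPM in clusters 0 to 5. The fold was 8.35 over clusters 0 to 5 (8.18 to 8.53) and 2.00 over cluster 6 (1.96 to 2.04). ACTA2, smooth muscle actin, was at 937, 424 and 123 CPM in the same groups, 7.64-fold over clusters 0 to 5 and 2.21-fold over cluster 6 (2.13 to 2.30). MYL9, a myosin light chain, was at 726, 353 and 145 CPM, 2.05-fold over cluster 6 (1.96 to 2.14). These levels did not set cluster 7 apart from cluster 5, which had 3836 CPM of TAGLN, 957 CPM of ACTA2 and 1075 CPM of MYL9.

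Most cluster 7 cells carried these transcripts. At 4000 UMIs per cell, 89.4% of cluster 7 cells had a TAGLN UMI, against 70.2% of cluster 6, 23.6% of clusters 0 to 5 and 10.7% of cluster 1, the cluster with the lowest level. The unthinned shares were 92.9%, 80.4%, 31.9% and 21.2%. For ACTA2 the thinned shares were 68.2%, 47.2%, 15.4% and 8.27% and the unthinned 79.4%, 60.6%, 24.7% and 19.6%. The median UMIs of TAGLN per thinned cell were 8 in cluster 7 and 2 in cluster 6.

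The contrast with clusters 0 to 5 was smaller at matched dose. The make-up of clusters 0 to 5 also differed between doses. Cluster 5, with its high TAGLN, gave 16 of their 200 cells at 500 nM and 56 of 124 at 4 µM. The part of this make-up in the values below was not tested. At 500 nM, where 2.95% of all genes were higher, 6 of 10 measured genes of the list were higher, with a median of 1.12. At 1, 2 and 4 µM the medians were 0.40, 0.43 and 0.37, with 1 gene higher at each dose and 1 lower at 1 and 4 µM, while 1.63%, 1.18% and 1.26% of all genes were higher. TAGLN was at 1651, 2266, 3712 and 6643 CPM in cluster 7 at 500 nM, 1, 2 and 4 µM, at 710, 934, 2187 and 4306 CPM in cluster 6, and at 448, 1158, 1891 and 3446 CPM in clusters 0 to 5. Cluster 7 was the highest of the 3 groups at each dose, and its level at 4 µM was 4.02-fold that at 500 nM (3.82 to 4.24). The cells not listed had 736, 970, 1474 and 2885 CPM.

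MYLK, the kinase that phosphorylates the myosin light chain, was chosen after its values were seen, as a long gene that was no lower than in cluster 6. It spans 274 kb and was at 331 CPM in cluster 7, 219 CPM in cluster 6 and 105 CPM in clusters 0 to 5. By dose it was at 227, 166, 329 and 612 CPM in cluster 7 and 115, 232, 389 and 583 CPM in clusters 0 to 5, so cluster 7 was the lower at 1 and 2 µM. The window at a single RefSeq start of MYLK is shown because it holds a CArG box, the sequence that serum response factor binds. The window at a single RefSeq start of ACTA2 is shown for comparison. Both are 300 bases, 250 before and 50 after the RefSeq start in GRCh38.p14, on the minus strand, at chr3:123620499-123620798 for MYLK and chr10:88991288-88991587 for ACTA2. Capitals mark the CArG box.
MYLK: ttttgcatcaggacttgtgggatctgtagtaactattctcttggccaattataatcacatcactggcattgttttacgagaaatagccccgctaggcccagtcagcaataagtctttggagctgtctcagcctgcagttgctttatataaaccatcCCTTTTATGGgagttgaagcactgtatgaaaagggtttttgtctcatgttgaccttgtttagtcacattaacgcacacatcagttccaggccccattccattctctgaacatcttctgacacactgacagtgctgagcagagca
ACTA2: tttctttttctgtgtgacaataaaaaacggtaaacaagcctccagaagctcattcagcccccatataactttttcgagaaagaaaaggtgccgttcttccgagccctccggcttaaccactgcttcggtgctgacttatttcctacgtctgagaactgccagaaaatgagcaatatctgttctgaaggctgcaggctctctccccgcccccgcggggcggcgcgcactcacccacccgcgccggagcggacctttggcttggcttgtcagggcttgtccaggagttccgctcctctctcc
In MYLK the box begins 94 bases before the start used here. Whether that start is the one of the kinase transcript was not checked. The RefSeq table matched 11 of the 16 list genes, without TAGLN, MYL9, MYOCD, MYH11 and DES, and 2 of these 11, MYLK and ACTG2, held a CArG box on either strand, against 1.29% of 27305 promoters of this length. None was found in this window of ACTA2, which says only that these letters are not in it. Each gene was searched at a single start, so any other start of MYLK or ACTA2 was not covered. Binding of serum response factor was not measured. The TEAD motif GGAATG was in 4 of 11, against 14% of all promoters; in MYLK it does not overlap the CArG box.

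FTH1 encodes the ferritin heavy chain for iron storage, and copies of it elsewhere in the genome make its exact count uncertain. It was at 29782 CPM in cluster 7, 20092 CPM in cluster 6 and 7448 CPM in clusters 0 to 5, 4.00-fold over the last (3.98 to 4.02). Within cluster 7 it was at 39870, 34876, 26199 and 21433 CPM at 500 nM, 1, 2 and 4 µM, so the level was lower at each higher dose. In cluster 6 it was at 22531, 23461, 18214 and 14766 CPM and in clusters 0 to 5 at 10388, 13562, 13086 and 12890 CPM. Cluster 7 was the highest of the 3 groups at each dose. Of the 18 measured genes of the ATF4 stress response 5 were higher in cluster 7 than in clusters 0 to 5 and 1 lower, against 3.04% and 17.3% of all genes. At matched doses of 500 nM, 1, 2 and 4 µM, 1 of 16, 0 of 18, 0 of 18 and 0 of 17 were higher. At the same doses 3, 0, 1 and 2 were lower. Of all genes 2.95%, 1.63%, 1.18% and 1.26% were higher there and 22.8%, 14.4%, 12% and 13.7% lower. NUPR1, a stress-induced chromatin protein, was at 365 CPM in cluster 7 and 65.5 CPM in clusters 0 to 5 (5.57-fold, 5.25 to 5.91). At matched dose NUPR1 was 2-fold higher at 500 nM only. Beside genes of like span its log2 ratio to cluster 6 was 0.26. Against cluster 6, 0 of 18 measured ATF4 genes were higher and 1 lower, while 0.0963% and 8.13% of all genes were. The ATF4 median there was 0.04, and that of all genes -0.25.

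The genes with the highest ratios to clusters 0 to 5 had varied functions. The hair keratin KRT81 was at 340 CPM in cluster 7 against 29.3 CPM in clusters 0 to 5 (11.6-fold, 10.8 to 12.6), and BEX1, a small adaptor protein of neurons, at 66.0 against 4.58 CPM (14.4-fold, 11.9 to 17.6). SPANXB1, a testis gene expressed in melanomas, was at 271 against 26.8 CPM (10.1-fold), and BASP1, a membrane protein of growth cones, at 175 against 19.0 CPM (9.22-fold). All 4 were at similar levels in cluster 6, at 267, 49.0, 224 and 185 CPM. SPANXB1, SPANXC, VCX3B and KRT81 belong to families of near-identical copies, and OR51B5 overlaps other genes, so their counts are uncertain.

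Of 7633 genes measured at all 4 matched doses, 15 (0.197%) were higher in cluster 7 than in clusters 0 to 5 at every dose and 488 (6.39%) lower at every dose. The 15 were AKR1B1, BASP1, BEX1, CLIC3, DMKN, GLIPR1, IL18, KRT81, MAGEB2, OR51B5, PKP2, RARRES2, SPANXB1, SPANXC and VCX3B. Those outside the rule for named genes, RARRES2 among them, were picked with their values known. KRT81 was at 203, 457, 328 and 334 CPM in cluster 7 at 500 nM, 1, 2 and 4 µM, against 29.1, 123, 91.5 and 77.2 CPM in clusters 0 to 5. RARRES2, which encodes the chemoattractant chemerin, was at 44.0, 52.1, 71.9 and 87.1 CPM against 4.34, 7.76, 15.4 and 13.5 CPM. In both genes the lowest cluster 7 value lay above the highest value of clusters 0 to 5. Both were picked from genes selected as higher at every dose, and the share of all genes with such a gap was not counted.

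**Figure D2:**
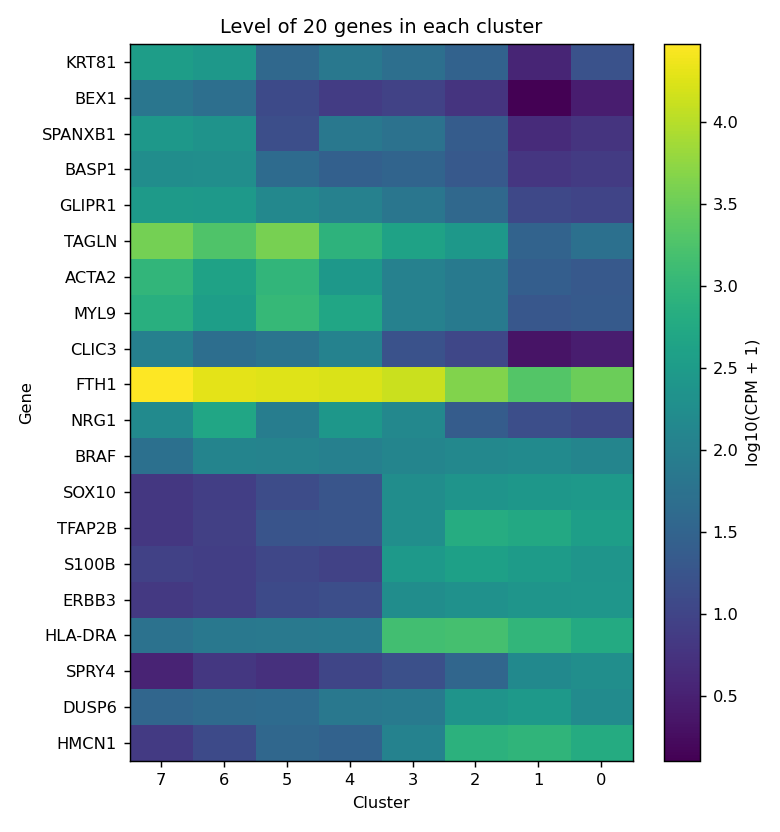
Level of 20 genes (rows) in each cluster (columns, cluster 7 at the left) as log10(CPM + 1) by colour. SOX10, TFAP2B, S100B, ERBB3 and HLA-DRA were low in clusters 7, 6, 5 and 4; TAGLN, ACTA2 and MYL9 were high in clusters 7 and 5.

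Against cluster 6, the genes lower in cluster 7 were mostly long ones. Of 9341 measured genes 759 (8.13%) were lower in cluster 7 and 9 (0.0963%) were higher. With TMM scaling 198 were lower and 29 higher, so 12.8% of the calls were on the higher side in place of 1.17%. The 9 became 5 without the cells of 500 nM and 3 without those of 1 µM. With a gene's span taken as the distance between its ends in GENCODE release 29, 620 of the 757 lower genes with a known span (81.9%) covered 100 kb or more, against 24.0% of measured genes. The median span was 228 kb for the lower genes and 39.6 kb for all. The median log2 ratio of cluster 7 over cluster 6 was 0.24 for genes under 5 kb, 0.18 from 5 to 10 kb, 0.05 from 10 to 20 kb, -0.19 from 20 to 50 kb, -0.43 from 50 to 100 kb, -0.65 from 100 to 200 kb, -0.90 from 200 to 500 kb and -1.17 at 500 kb or more. The order by span held in each of the 4 high-dose populations, where genes of 500 kb or more had medians of -1.22, -1.17, -1.24 and -1.14 at 500 nM, 1, 2 and 4 µM.

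**Figure D3:**
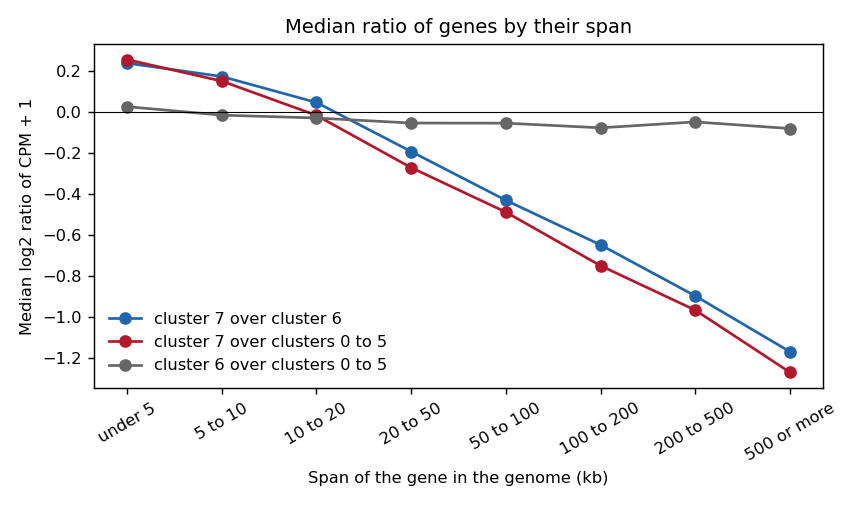
Median log2 ratio of CPM + 1 (y axis) for genes binned by span in kb (x axis). Cluster 7 over cluster 6 (blue) went down to -1.17 and cluster 7 over clusters 0 to 5 (red) to -1.27 with longer genes, while cluster 6 over clusters 0 to 5 (grey) stayed between -0.08 and 0.03.

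Cluster 7 over clusters 0 to 5 gave nearly the same steps, with 0.26 for genes under 5 kb and -1.27 for genes of 500 kb or more. Cluster 6 over clusters 0 to 5, in contrast, had 0.03 and -0.08 in these bins. Genes of 100 kb or more gave a median of 10.8% of a cell's UMIs in cluster 7 (10th to 90th percentile 7.72 to 13.9), 17.7% in cluster 6 (13.8 to 23.1) and 19.5% in clusters 0 to 5 (13.3 to 25.4). The medians of the single clusters 0 to 5 ran from 17.0% to 20.2%. Cluster 7 was also the highest in ribosomal protein UMIs, with a median of 24.5% of a cell's UMIs against 20.6% in cluster 6 and 18.5% in clusters 0 to 5. At 4000 UMIs per cell, a median of 1765 genes was detected in cluster 7, 1976 in cluster 6 and 2052 in clusters 0 to 5. The members from lower doses were alike in this, with 10.4% of UMIs from genes of 100 kb or more. Whether reads in introns were counted is not given in the sources used here; the part of nuclear or unspliced RNA, cell integrity and sequencing library in these shares was not tested.

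**Figure D4:**
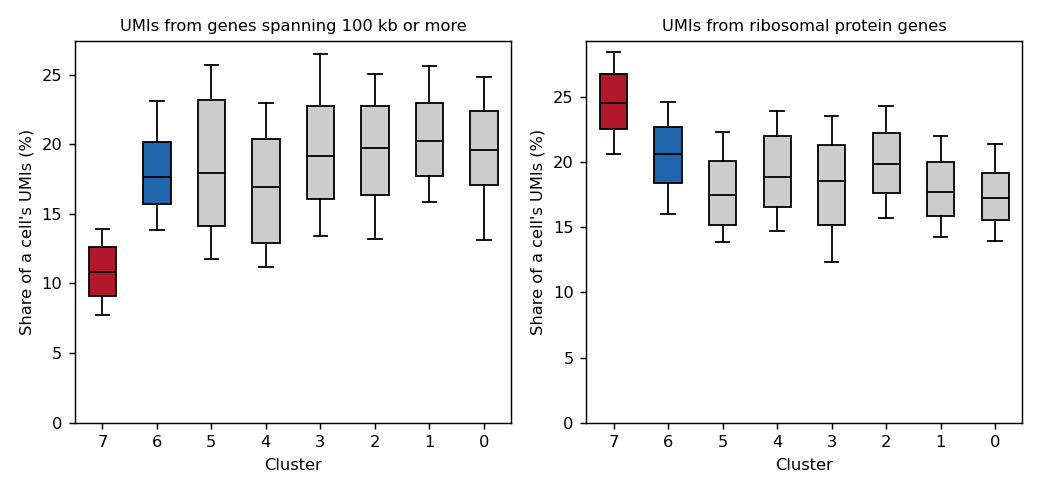
Share of each cell's UMIs (%, y axis) from genes spanning 100 kb or more (left) and from ribosomal protein genes (right) by cluster (x axis, cluster 7 at the left). Boxes run from the 25th to the 75th percentile, lines mark medians and whiskers the 10th and 90th percentiles; the 90th percentile of cluster 7 at the left (13.9%) lay close to the 10th percentile of cluster 6 (13.8%).

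Of the 12 genes named for the lowest ratios to cluster 6, 10 span over 100 kb. The exceptions were IGFN1, an immunoglobulin-domain gene of 38.1 kb at 3.94 CPM in cluster 7 and 26.6 CPM in cluster 6 (6.76-fold lower, 4.59 to 10.3), and the cancer-testis gene MAGEC3, at 13.4 against 54.5 CPM. NRG1, the neuregulin ligand of ERBB3, spans 1129 kb and was at 156 CPM in cluster 7, 493 CPM in cluster 6 and 68.5 CPM in clusters 0 to 5. By dose it was at 121, 150, 178 and 157 CPM in cluster 7 and 453, 516, 471 and 544 CPM in cluster 6. Its log2 ratio to cluster 6 was -1.65 as measured and -0.58 beside genes of like span, which is under 2-fold. The repair gene RAD51B, the axon guidance gene SEMA5A, the potassium channel KCNQ5, the adhesion genes SDK1 and KIRREL3 and the transcription factor NPAS3 all span over 500 kb and were 3.24 to 3.74-fold lower. Beside genes of like span their log2 ratios ran from -0.78 to -0.60, so none of these 6 stayed 2-fold lower. BRAF, the drug target, spans 206 kb and was at 51.0 CPM in cluster 7, 116 CPM in cluster 6 and 134 CPM in clusters 0 to 5 (2.62-fold lower, 2.36 to 2.92). BRAF was at 40, 46.9, 56.4 and 54.5 CPM in cluster 7 at 500 nM, 1, 2 and 4 µM. Beside genes of like span, its log2 ratio was -0.58 to clusters 0 to 5 and -0.32 to cluster 6.

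When the median of genes of like span was subtracted from each ratio, 25 genes were higher and 41 lower against cluster 6, and 548 were higher and 735 lower against clusters 0 to 5. Against cluster 6, ACTA2 (1.5) and MYLK (1.44) were over 2-fold higher on this measure, while MYL9 (0.92) and TAGLN (0.79) were under 2-fold. The MYLK value takes the whole 274 kb of the gene as its span, and as measured its log2 ratio was 0.59. UMIs were counted per gene, so transcripts from different starts of MYLK cannot be told apart. Among long smooth muscle genes, chosen after their values were seen, CACNA1C, a calcium channel, was at 55.6 CPM in cluster 7 and 162 CPM in cluster 6, and MYOCD, the coactivator myocardin, at 138 against 194 CPM. MCL1, an apoptosis inhibitor, was at 98.8 against 158 CPM and FOSB, an AP-1 factor, at 92.8 against 162 CPM. Neither was 2-fold lower than in cluster 6, with log2 ratios of -0.67 and -0.80 as measured and -0.88 and -0.98 beside genes of like span. Neural crest genes kept their loss against clusters 0 to 5, with SOX10 at -4.90 and TFAP2B at -5.77, whereas the list of neuronal adhesion genes and channels had a median of -1.02 as measured and 0.01 after subtraction.

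The 9 genes higher than in cluster 6 had a median span of 9.20 kb. LUM, the matrix proteoglycan lumican, was at 40.4 CPM in cluster 7 and 16.8 CPM in cluster 6 (2.41-fold, 1.98 to 2.95), with 30.1 CPM in clusters 0 to 5. CLIC3, an intracellular channel-like protein, was at 102 against 47.7 CPM. By dose CLIC3 was at 119, 86.0, 87.8 and 125 CPM in cluster 7 and 40.8, 31.1, 55.3 and 68.0 CPM in cluster 6. Dose by dose against cluster 6, 49 (0.572%), 25 (0.268%), 13 (0.139%) and 36 (0.405%) genes were higher at 500 nM, 1, 2 and 4 µM, and 1274 (14.9%), 1011 (10.8%), 969 (10.3%) and 940 (10.6%) lower. No gene was 2-fold higher at all 4 matched doses among 8149 measured there (0%), and 230 (2.82%) were lower at all 4.

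Within cluster 7 the 166 cells at 4 µM were set against the 116 at 500 nM, and 228 of 7630 measured genes were higher at 4 µM (2.99%) and 70 lower (0.917%). Of the smooth muscle list 7 of 12 were higher at 4 µM and 0 lower, with a median of 1.45 against 0.04 over all genes. ACTA2 was at 470, 602, 998 and 1606 CPM at 500 nM, 1, 2 and 4 µM. LMO3, a LIM-only transcriptional cofactor, was at 14, 19.3, 29.4 and 67.1 CPM. GPC5, a glypican chosen after its values were seen, was at 73.9, 333, 569 and 797 CPM in cluster 7 and 190, 572, 1541 and 1882 CPM in cluster 6. The Wnt inhibitor DKK1, chosen likewise, was at 136, 65.2, 59.2 and 38.2 CPM in cluster 7. The median mitochondrial share of cluster 7 was 8.27% at 4 µM and 5.57% at 500 nM, and its part in these values was not tested.

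**Figure D5:**
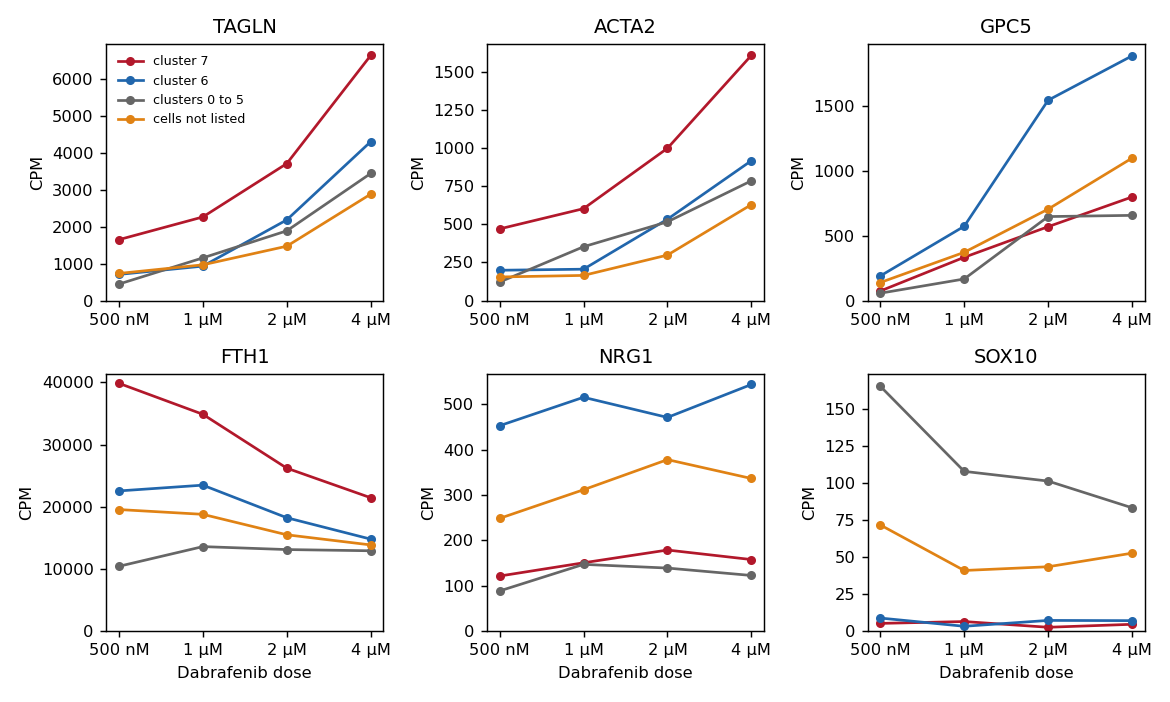
Level in CPM (y axes, each from 0) of 6 genes at 500 nM to 4 µM dabrafenib (x axis, in equal steps) in cluster 7, cluster 6, clusters 0 to 5 and the cells not listed; points are sums over the cells of 1 culture. TAGLN and ACTA2 were higher and FTH1 lower at 4 µM in cluster 7, and the measured level of NRG1, a gene of 1129 kb, was lower in cluster 7 than in cluster 6 at each dose.

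Between the same doses 204 genes were higher (2.23%) and 117 lower (1.28%) in cluster 6, and 110 higher (1.13%) and 48 lower (0.495%) in cells not listed. Of the 228 genes higher at 4 µM, 209 were measured in cluster 6 and 175 of these had the same sign there, as had 158 of the 211 measured in cells not listed. Of the 70 lower genes 54 of 64 had the same sign in cluster 6 and 55 of 66 in cells not listed. The medians for the 228 genes were 1.23 in cluster 7, 0.53 in cluster 6 and 0.32 in cells not listed. Over all measured genes the medians were 0.04, -0.01 and -0.04 in these groups. The share of all genes with each sign was not counted, and the groups came from the same cultures. In cells not listed, the 75th percentile of the mitochondrial share was 24.96% at 4 µM and 7.81% at 500 nM. The part of this share in the values was not tested.

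Against untreated cells 559 of 9685 measured genes were higher (5.77%) and 1963 lower (20.3%). With TMM scaling 999 were higher and 1062 lower, so 48.5% of the calls were on the higher side in place of 22.2%. The smooth muscle list had 11 of 12 measured genes higher, with a median of 3.52. TAGLN was at 3679 CPM in cluster 7 and 80.7 CPM in untreated cells (45.6-fold, 41.0 to 50.9), and KRT81 at 340 against 15.6 CPM (21.9-fold, 17.1 to 28.4). MAPK output genes had 13 of 17 lower and 1 higher, and the cell cycle driver CCND1 was at 79.7 CPM in cluster 7 and 397 CPM in untreated cells. S-phase genes had 5 of 16 measured lower and G2 and M-phase genes 6 of 12, with 0 higher in each. Both sides are cells of the table labelled g1, so these counts cannot show how much the cultures were cycling.

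Markers of other cell types were summed by list. Fibroblast markers summed to 85.0 CPM over 8 of 9 genes in the table in cluster 7 and 62.4 CPM in clusters 0 to 5; at the 4 high doses the sums ran from 53 to 120 CPM and from 57.6 to 146 CPM. Epithelial markers summed to 1079 CPM in cluster 7 against 535 CPM in clusters 0 to 5, nearly all of it keratin KRT18, at 959 against 454 CPM. Immune markers summed to 38.4 against 20 CPM, nearly all from the lysosomal gene CD68 at 35.4 against 16.4 CPM, endothelial markers to 19.1 against 18.9 CPM, neuronal and glial markers to 11.5 against 6.4 CPM, adipocyte markers to 12.8 against 2.6 CPM, and lung epithelial markers to 76.7 against 19.8 CPM. Of the lung list 4 of 9 genes were in the table, led by SLPI and LMO3, and of the erythroid list 1 of 5, at 0.1 against 0.2 CPM. The part of these markers in the other results was not tested.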

How the data were processed

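Per the labels' protocols, A375 cells adapted to dabrafenib by dose escalation were tagged, pooled and run on the Chromium platform. Cell Ranger 7.0.0 and GRCh38 are listed in the submitters' processing notes. The authors deposited raw UMI counts per gene and cell and a cell table with clusters and the percent of mitochondrial UMIs, per the file headers. Each cell name ends in its population. Cells were matched by name, and 5059 of 5059 listed cells were found. Whether introns were counted, and how clusters were made, is not given in the sources used here.

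UMIs were summed per group and scaled to CPM. Fold intervals are 95% exact binomial intervals; PCR and cell-to-cell spread are not in them, so they cover counting error only. No doublet caller was run. Cells were thinned to 4000 UMIs for shares. Spans came from GENCODE release 29 by symbol (99.4% of genes), and span-adjusted ratios subtract the median of 20 bins of genes by span. Promoters are from RefSeq. Named genes were the 12 highest and 12 lowest against clusters 0 to 5 and against cluster 6 at 25 CPM or more, up to 4 members per list, and BRAF. The members and the 46 lists were chosen with earlier results of these data known. Ratios were tested on simulated data. Alternatives are in the closing section. Python 3.11.15, numpy 2.4.6, scipy 1.17.1, pandas 2.3.3, matplotlib 3.10.9, and R 4.3.3 with edgeR 4.0.16 for TMM factors were used.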

Additional observations from a re-analysis of the deposited data

How the results depend on the processing

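No paired analysis was possible because each population was 1 culture and the 2 sequencing runs cannot be told apart in the cell names. Against clusters 0 to 5, the 293 higher and 1666 lower genes became 132 and 821 at a minimum of 50 CPM, 118 and 693 at 3-fold, 575 and 1007 with TMM scaling, and 548 and 735 with span-adjusted ratios, an alternative chosen after seeing the data. Against cluster 6, the 9 higher genes became 4 with a pseudocount of 5 CPM, 4 at 50 CPM, 0 at 3-fold, 29 with TMM, 5 without 500 nM, 3 without 1 µM, 25 span-adjusted, and 49, 25 and 36 in cells of 500 nM, 1 µM and 4 µM alone. The 759 lower became 422, 3.8e+02 (rounded), 22, 198 and 41 under the pseudocount, 50 CPM, 3-fold, TMM and span-adjusted settings, and 1274 at 500 nM alone. Against untreated cells, the 559 higher became 842 with no minimum, 245 at 50 CPM, 286 at 3-fold and 999 with TMM, and the 1963 lower became 961, 769 and 1062 under the last 3. At all 4 matched doses, the 15 higher became 9 at 50 CPM, 5 at 3-fold, 44 with TMM, 25 without mitochondrial and ribosomal protein genes, 27 as a mean of per-cell CPM, 9 in a random subset of the cells and 61 span-adjusted; the 488 lower became 292, 175, 298, 297 and 192 at 50 CPM, 3-fold, TMM, the random subset of cells and span-adjusted. Over all cells, the shares at 500 nM, 1, 2 and 4 µM were 17.1%, 23.3%, 31.9% and 23.5%. The median of neuronal adhesion genes against clusters 0 to 5 turned to 0.0071 when span-adjusted, and the log2 ratio of CCL2 against cluster 6 to -0.37 in cells of 4 µM alone; the cause was not tested. The counts of 4 µM against 500 nM stayed within 1.5 times of the reported ones under the alternatives run.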

Other observations

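By position, after the span of each gene was allowed for, chromosome 11 had a median log2 ratio of 0.28 in cluster 7 over clusters 0 to 5 (574 genes), chromosome 18 of 0.22 (149 genes) and chromosome 1 of -0.20 (981 genes). Cluster 6 over clusters 0 to 5 had 0.30, 0.31 and -0.25 on the same chromosomes. At matched doses chromosome 11 had 0.28, 0.18, 0.14 and 0.16 at 500 nM, 1, 2 and 4 µM. DNA copies were not measured in these files.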
